A study of Mus musculus with 21 samples.

Results

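DNA replication and E2F target genes are described here as 44 genes, chosen by a list of gene symbols and all found among the 20900 genes of the deposited table. All 44 passed the filter on low values. They fall into 8 groups by role, from the proteins that mark replication origins to the E2F factors that switch on the genes of S phase. Mouse embryonic stem cells given an inhibitor of RNA polymerase I were compared with untreated cells. As deposited, 36 of the 44 mRNAs were called lower at 4 h of BMH-21, and CX-5461 at 4 h had 41 lower. These 4 h counts depend on the scaling, as described below. Centring of each library, median-ratio factors and quantile normalization left 34, 30 and 25 lower for BMH-21. For CX-5461 they left 38, 28 and 16. After quantile normalization, CX-5461 at 4 h had 22 members called in either direction, against 72.4% of all genes. At 8 h BMH-21 had 42 lower, and CX-5461 had 15 lower as the values were deposited and 40 once each library was centred on its median. Of all genes tested, 44.9% were called lower at 4 h of BMH-21 and 51.2% at 4 h of CX-5461 on the deposited scale. At 8 h these shares were 56.9% with BMH-21, and 14.3% as deposited and 44.7% after centring with CX-5461. Rrm2 and E2f1 were not called below control at any time on the deposited scale.

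A replication origin is first bound by the origin recognition complex, and CDC6 and CDT1 then load the ring-shaped MCM helicase onto it, a step called licensing. At the start of S phase the helicase is switched on by CDC45, the GINS complex and MCM10, and primase, the polymerases, the sliding clamp and the enzymes that supply deoxynucleotides carry the synthesis. E2F factors bind the promoters of many of these genes, retinoblastoma family proteins restrain the factors, and cyclin E with its kinase lifts that restraint. Mouse embryonic stem cells have a short G1 phase and are known for high levels of cyclin E and of E2F target transcripts.

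The cells were E14, a line of embryonic stem cells from the 129 mouse strain grown in serum with leukaemia inhibitory factor. There were 7 groups of 3 libraries, 21 in all. The control group was untreated and taken at 0 h, and the others received fresh medium with 1 µM BMH-21 or 1 µM CX-5461 for 2, 4 or 8 h. Both compounds inhibit RNA polymerase I, which transcribes ribosomal DNA. Poly(A) RNA went into libraries with a kit that keeps strand. One set of controls served both inhibitors, and no group had fresh medium without inhibitor for the same hours. In comparisons with control, the inhibitor therefore cannot be told apart from fresh medium or hours in culture. Nothing in the labels says that replicates came from separate cultures, so p-values measure the spread between these libraries, which may be technical.

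Because the genes are grouped by their link to E2F factors, their promoters were searched for TTTNNCGC, a loose form of the E2F site where N is any base. The search covered both strands of the 250 bases before and 50 bases after each RefSeq start (GRCm38.p6). The table of promoters held 35 of the 44 genes, and 16 of these had a match while 19 had none. The letters occurred in 5.93% of the 27025 genes with a promoter of the same length, and in 9.39% of the 11000 of them that were tested for expression. Stretches of 90 bases are shown for 5 of the 16, because they overlap no GENCODE M21 gene model and show the match in 1 copy or several. They belong to a pair of MCM subunits, a polymerase subunit, an E2F factor and DTL, and no transcribed sequence is shown. Each is written 5′ to 3′ on the strand of its gene, with the matches in capitals.
Mcm5: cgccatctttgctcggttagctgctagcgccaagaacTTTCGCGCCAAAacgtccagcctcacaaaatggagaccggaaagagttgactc
Mcm6: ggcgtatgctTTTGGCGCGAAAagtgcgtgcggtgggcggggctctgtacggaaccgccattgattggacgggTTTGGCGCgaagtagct
Pola1: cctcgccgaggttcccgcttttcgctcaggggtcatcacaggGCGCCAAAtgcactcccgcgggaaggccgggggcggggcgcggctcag
E2f3: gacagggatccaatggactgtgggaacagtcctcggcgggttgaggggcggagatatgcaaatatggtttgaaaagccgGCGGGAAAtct
Dtl: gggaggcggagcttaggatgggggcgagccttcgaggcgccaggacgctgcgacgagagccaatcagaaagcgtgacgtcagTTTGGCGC

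The Mcm5 stretch is chr8:75109319-75109408 on the plus strand, and its 2 matches overlap and run in opposite directions. The Mcm6 stretch is chr1:128359736-128359825 on the minus strand and holds 3 matches, of which 2 overlap. Pola1 (chrX:93632246-93632335), E2f3 (chr13:29986064-29986153) and Dtl (chr1:191575545-191575634) lie on the minus strand with 1 match each. A match is a run of letters and says nothing of binding. The median log2 difference after 8 h of BMH-21 was -0.86 over the 16 members with a match and -0.79 over the 19 without. Over all tested genes with a promoter it was -0.54 for 1033 genes with a match and -0.38 for 9967 genes without. After 8 h of CX-5461 the medians were -0.20 for members with a match and -0.06 for members without. Over all tested genes with a promoter they were 0.01 with a match and 0.12 without.

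Reads per library ran from 46604397 to 62812641, and a single member had 343 to 39231 reads in a library. The deposited values carry a scaling factor per library, from 0.832 to 1.375, highest after 8 h of BMH-21 (1.21 to 1.38) and 0.888 to 0.943 after the same time of CX-5461. Median-ratio factors of the same reads ran only from 0.945 to 1.10. On the deposited scale the median of all 14666 genes tested lay at -0.40 for BMH-21 and at 0.11 for CX-5461 at 8 h, against -0.01 and 0.01 with median-ratio factors. Differences are therefore given on the deposited log2 scale, and for the genes described in every library also under other scalings. These are, always in the same order, centring of each library on its median over the genes tested, median-ratio factors and quantile normalization, with values for BMH-21 before those for CX-5461. A gene is called where its limma adjusted p was under 0.05. The 8 embryonic stem cell markers all passed the filter and none was at 0 reads. Their summed level, on the log2 scale, was 12.55 to 12.74 in controls, 11.51 to 11.60 at 8 h of BMH-21 and 12.43 to 12.53 at 8 h of CX-5461. The 5 trophectoderm markers, 4 of which passed the filter, summed to 3.14 to 3.40 in controls, 5.84 to 6.01 at 8 h of BMH-21 and 5.19 to 5.30 at 8 h of CX-5461. Krt7 held most of that sum at 8 h (means of 0.99, 5.66 and 4.49), while the means of Eomes were 2.18, 1.08 and 3.04 and those of Elf5 -1.09, -0.998 and -0.988 in the 3 groups. The 4 neural markers, all past the filter, summed to 7.46 to 7.57, 6.13 to 6.25 and 7.63 to 7.74 in the same groups, most of it Tubb3. The 6 primitive endoderm markers (5 past the filter) summed to 3.43 to 3.75, 3.96 to 4.23 and 4.00 to 4.07, the 7 fibroblast markers (3 past the filter) to 4.93 to 5.12, 5.28 to 5.54 and 5.43 to 5.47, and the 4 mesoderm markers to 2.37 to 2.68, 2.51 to 2.84 and 2.70 to 2.78. Within each of these lists genes went opposite ways with BMH-21. Means in the same groups were 1.15, 3.15 and 2.07 for Pdgfra and 1.72, 1.02 and 1.48 for Gata4. Those of Col1a1 were 3.15, 5.01 and 4.38 and those of Thy1 4.48, 3.07 and 4.35. Mesp1 had -1.70, 1.65 and -0.25 and Kdr 1.75, 0.64 and 1.51. The part of these shifts in the results below was not tested, and in bulk RNA fewer cells of a type and less RNA per cell cannot be told apart.

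The share of all reads that came from the 44 genes uses none of these scaling factors. It divides by the total reads of the library, so it also moves with the reads of all other genes. It was 0.861% ± 0.0101 (SD, n = 3) in controls and ranged there from 0.851% to 0.871%. After 2, 4 and 8 h of BMH-21 it was 0.853% ± 0.0053, 0.773% ± 0.012 and 0.679% ± 0.0097 (SD, n = 3 each). Under CX-5461 the same share was 0.876% ± 0.0068, 0.808% ± 0.0037 and 0.799% ± 0.0018. The libraries of both inhibitors at 4 h and 8 h lay below every control library, those of BMH-21 at 8 h were the lowest of all, and the CX-5461 values at 4 h (0.804% to 0.811%) and 8 h (0.797% to 0.801%) did not overlap but lay close together.

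**Figure D1:**
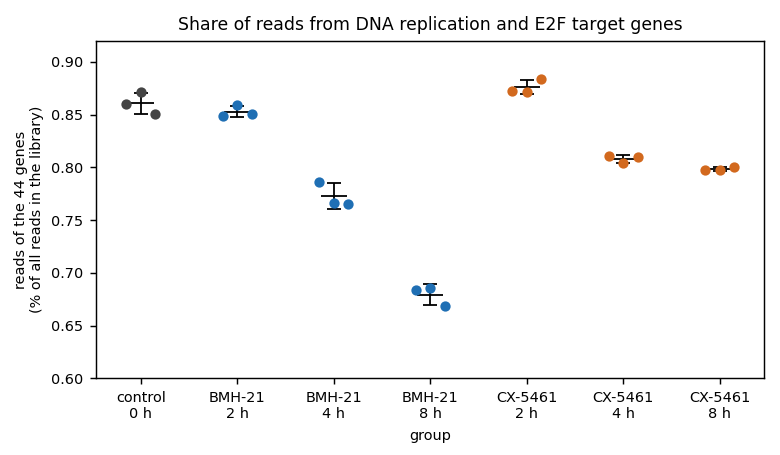
Share of each library's reads that came from the 44 genes, in percent (the axis starts above 0), for the control and each inhibitor at 2, 4 and 8 h. Points are libraries, and black bars are the mean and SD of 3. BMH-21 at 8 h (0.668% to 0.686%) lies below all other groups, and CX-5461 at 8 h (0.797% to 0.801%) lies below the controls (0.851% to 0.871%).

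The median log2 difference of the 44 genes, less the median of all genes tested, is the same under any scaling that shifts whole libraries. With BMH-21 it took the values -0.01, -0.18 and -0.42 at 2, 4 and 8 h, against 0.02, -0.13 and -0.23 with CX-5461. In rank the inhibitors were close at 8 h, where 26.4% of all genes lay below the median of the 44 with BMH-21 and 27.6% with CX-5461. The number of the 44 genes that lay below the median of all genes went from 28 to 38 to 39 with BMH-21 and from 17 to 36 to 40 with CX-5461. On the deposited scale itself the median of the 44 at 8 h was -0.82 for BMH-21 and -0.12 for CX-5461, and after centring these were -0.60 and -0.33.

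**Figure D2:**
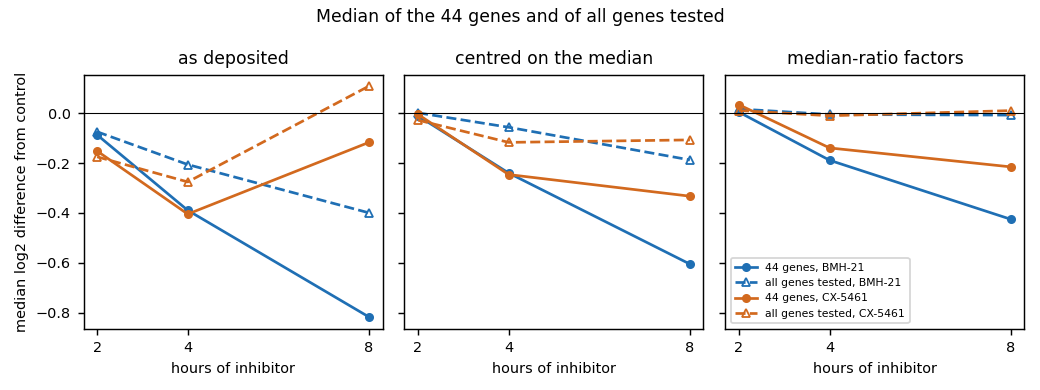
Median log2 difference from control of the 44 genes (solid lines, circles) and of all 14666 genes tested (dashed lines, triangles) against hours of inhibitor, under 3 scalings. Each of these scalings shifts whole libraries, so the gap between the lines is the same in every panel by construction. The solid line of each inhibitor lies below its dashed line at 4 h and 8 h. After 8 h of CX-5461 the solid line is at -0.12 as deposited and at -0.33 after centring. Quantile normalization, which can change the gap, is not shown.

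After 2 h few members differed from control. With BMH-21, E2f2 and E2f3 rose and Cdt1, Dtl, Gins3 and Pold1 fell, which makes 2 of 44 higher and 4 of 44 lower where 8.48% and 11.2% of all genes tested were called higher and lower. Centring gave 7 higher and 7 lower against 18.6% and 17.5% of all genes. Median-ratio factors gave 9 higher and 6 lower where 35.8% of all genes were called in either direction. Of all 14666 genes, 2947 were then higher and 2309 lower. Without BMH-21 replicate 1, or without control replicate 2, 3 members were called in place of 6. With CX-5461, E2f2, Mcm10, Ccne1 and Dtl fell and no member rose, against 7.45% of all genes called higher and 20.5% called lower. With centring 4 were higher and 5 lower (all genes 15.8% and 17.8%), with median-ratio factors 7 and 2 (31.7% of all genes in either direction) and quantile normalization 6 and 2 (28.5%). Of all 14666 genes, median-ratio factors had 2801 higher and 1841 lower. The 4 calls rest on single libraries, since 0, 1 and 11 members were called without control replicates 1, 2 and 3, and 12, 0 and 0 without CX-5461 replicates 1, 2 and 3. The share of members called at 2 h was near that of all genes or below it.

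At 4 h the falls had spread through the list under both inhibitors. With BMH-21, 36 of 44 genes were called lower and E2f1 higher, where 44.9% of all genes were called lower and 22.1% higher. Orc1, Orc2, Mcm6, Mcm7, Prim2, Rrm2 and Tyms did not pass. Centring gave 34 lower and 3 higher (41.5% and 32.2% of all genes), median-ratio factors gave 30 and 4 (72.7% of all genes in either direction) and quantile normalization gave 25 and 6 (73.3%). Of all 14666 genes, median-ratio factors had 5451 lower and 5213 higher. With CX-5461, 41 of 44 fell and none rose, where 51.2% of all genes were called lower and 19.8% higher, and Rrm2, Tyms and E2f1 did not pass. Centring gave 38 lower and 3 higher (45.7% and 28.5%), median-ratio factors gave 28 and 3 (69.2% in either direction) and quantile normalization gave 16 and 6 (72.4%). Of all genes, median-ratio factors had 5138 lower and 5015 higher here.

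At 8 h the counts of the inhibitors parted on the deposited scale. With BMH-21, 42 of 44 genes were called lower and none higher, where 56.9% of all genes were called lower and 24.5% higher. Rrm2 and E2f1 did not pass. Centring left 42 lower and put Rrm2 and E2f1 higher (51.3% and 33.3% of all genes), median-ratio factors gave 39 lower and 3 higher (82.5% in either direction) and quantile normalization gave 36 and 4 (84.1%). Of all 14666 genes, median-ratio factors had 6099 lower and 5997 higher. With CX-5461, 15 genes were called lower and Prim2 and E2f1 higher, where 14.3% of all genes were called lower and 35.1% higher. Centring gave 40 lower and 1 higher (44.7% and 29.3%), median-ratio factors gave 28 and 3 (70.1% in either direction) and quantile normalization gave 17 and 8 (68.1%). Of all genes, median-ratio factors had 4943 lower and 5340 higher with CX-5461. On the deposited scale 10, 9 and 10 members were called without control replicate 1, control replicate 2 and CX-5461 replicate 2, in place of 17. Gins1, Gins2, Mcm2, Mcm4, Mcm5, Mcm6, Pold1 and Rfc5 are the 8 that were called whichever of the 6 libraries was left out. The other 9 calls, Cdt1, Dtl, E2f1, Gmnn, Mcm3, Mcm7, Pcna, Prim2 and Rpa1, each ended without at least 1 library.

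**Figure D3:**
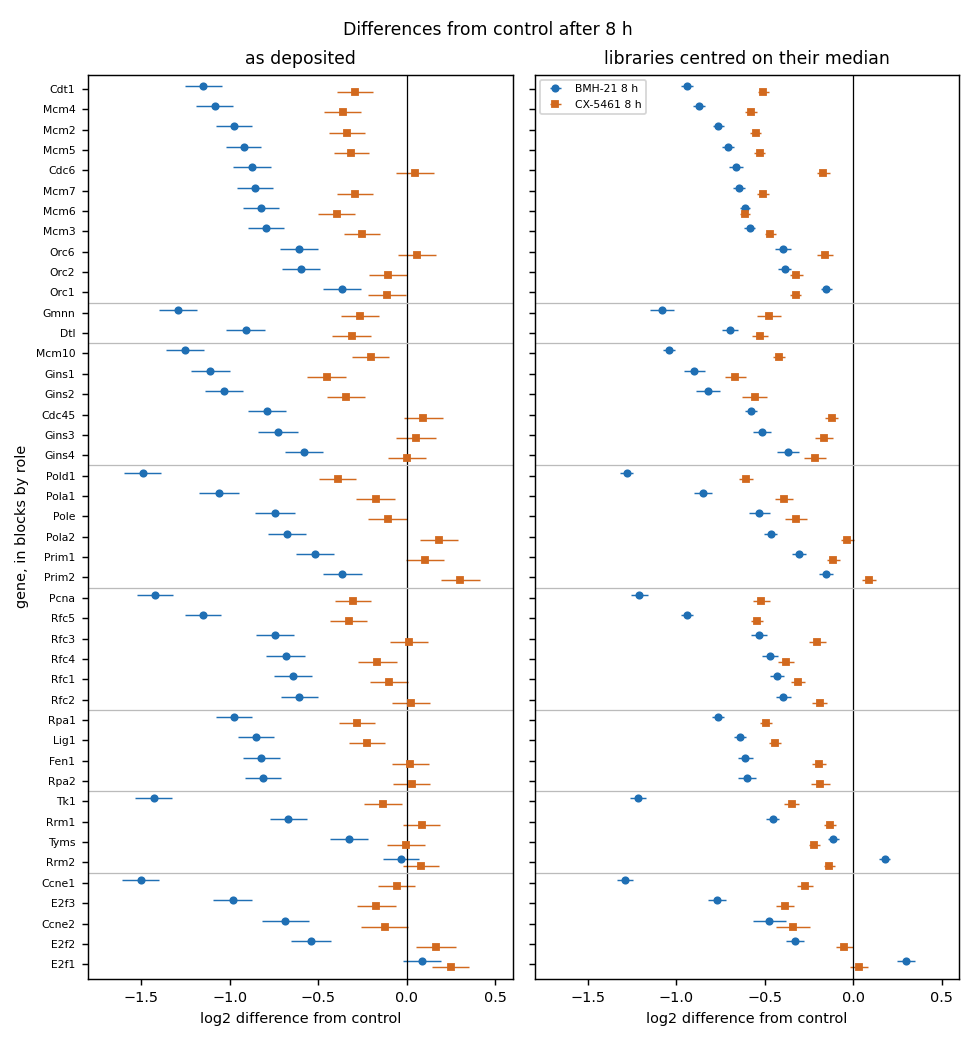
Log2 difference from control after 8 h for each of the 44 genes, in blocks by role, with BMH-21 as blue circles and CX-5461 as orange squares. Bars are the SE of the limma fit, the left panel has the deposited values and the right panel libraries centred on their median. The blue points lie to the left of zero for 43 genes as deposited, and Rrm2 and E2f1 are the 2 to its right after centring.

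All 11 genes of origin recognition and licensing fell after 8 h of BMH-21, by a median of -0.86. CDT1, which brings the helicase to the origin, led them. Cdt1 stood at log2 8.03, 8.02 and 7.81 in the 3 control libraries, 7.57, 7.79 and 7.67 at 2 h of BMH-21, 7.19, 6.93 and 7.06 at 4 h and 6.88, 6.70 and 6.83 at 8 h. The CX-5461 libraries gave 7.91, 7.71 and 7.75 at 2 h, 7.16, 7.40 and 7.21 at 4 h and 7.72, 7.59 and 7.67 at 8 h. All libraries of BMH-21 at each time, and of CX-5461 at 4 h and 8 h, lay below the lowest control. The difference from control was -1.15 ± 0.10 (SE; limma adjusted p = 2.1e-19) with BMH-21 for 8 h and -0.29 ± 0.10 (SE; limma adjusted p = 0.014) with CX-5461. The other scalings gave -0.94, -0.76 and -0.61 under BMH-21, and -0.51, -0.39 and -0.18 under CX-5461.

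The smallest difference in the licensing group was that of Orc1, the large ATPase of the origin recognition complex. Its control libraries held 6.95, 6.88 and 6.73, those of BMH-21 6.80, 7.04 and 6.998 at 2 h, 6.93, 6.62 and 6.63 at 4 h and 6.54, 6.33 and 6.60 at 8 h. With CX-5461 the Orc1 values were 6.97, 6.76 and 6.76, then 6.36, 6.63 and 6.41, then 6.80, 6.69 and 6.74. Only the BMH-21 8 h and CX-5461 4 h libraries lay wholly below the controls. The 8 h difference was -0.36 ± 0.11 (SE; limma adjusted p = 0.0014) with BMH-21, and -0.15, 0.03 (not called) and 0.12 under the other scalings, so its direction rests on the scaling. With CX-5461 it was -0.11 ± 0.11 (SE; limma adjusted p = 0.41) and, after centring, -0.33 (limma adjusted p = 4e-09). Median-ratio factors and quantile normalization gave -0.21 and -0.08.

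The 6 subunits of the MCM ring moved within a narrow band. After 8 h of BMH-21 their differences were -1.08 (Mcm4) to -0.80 (Mcm3), and -0.87 to -0.58, -0.69 to -0.41 and -0.48 to -0.08 under the other scalings, with all 6 called each time. Of all genes tested, 56.9% were called lower as deposited and 51.3% after centring. With median-ratio factors 82.5% were called in either direction, and 84.1% after quantile normalization. CX-5461 at 8 h left them at -0.40 (Mcm6) to -0.25 (Mcm3), and at -0.61 to -0.47, -0.49 to -0.35 and -0.21 to -0.02 under the other scalings, and after quantile normalization Mcm3 and Mcm7 were not called. On the deposited scale both of these calls also ended without control replicate 2. Mcm5 and Mcm6, whose promoter stretches are shown above, were at -0.92 and -0.82 with BMH-21 and at -0.31 and -0.40 with CX-5461. Over all 11 licensing genes, 7 were called after 8 h of CX-5461 as deposited and 11 after centring, all lower. Of all genes tested, 14.3% and 44.7% were called lower in these 2 settings.

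Both limits on licensing fell. GMNN (geminin) binds CDT1 and blocks a further round of licensing, and DTL is the receptor subunit of a ubiquitin ligase that removes CDT1 in S phase. Gmnn values were 6.92, 6.98 and 6.62 in controls, 6.74, 6.86 and 6.72 after 2 h, 6.35, 5.95 and 6.12 after 4 h and 5.54, 5.60 and 5.51 after 8 h of BMH-21. Under CX-5461 they were 6.74, 6.55 and 6.74, 5.86, 6.11 and 5.92 and 6.67, 6.51 and 6.55 at the same times. Gmnn was below all controls at 4 h of either inhibitor and at 8 h of BMH-21, and overlapped them at 8 h of CX-5461. The differences at 8 h were -1.29 ± 0.11 (SE; limma adjusted p = 1.8e-21) for BMH-21 and -0.26 ± 0.11 (SE; limma adjusted p = 0.036) for CX-5461. The other scalings put Gmnn at -1.08, -0.90 and -0.89 under BMH-21, and -0.48, -0.36 and -0.24 under CX-5461.

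Dtl had its lowest BMH-21 mean at 4 h and not at 8 h. It stood at 6.78, 6.81 and 6.57 in controls, 6.17, 6.48 and 6.34 at 2 h, 5.87, 5.65 and 5.55 at 4 h and 5.96, 5.60 and 5.88 at 8 h of BMH-21. The CX-5461 libraries held 6.58, 6.41 and 6.31, 5.99, 6.32 and 6.11 and 6.50, 6.31 and 6.43. The BMH-21 libraries lay below all controls from 2 h on. At 4 h Dtl was at -1.03 ± 0.11 (SE; limma adjusted p = 4.2e-15) with BMH-21 against -0.58 ± 0.11 (SE; limma adjusted p = 2.1e-06) with CX-5461, and the difference between the inhibitors was -0.45 ± 0.11 (SE; limma adjusted p = 0.0014). At 8 h it was at -0.91 ± 0.11 (SE; limma adjusted p = 7.5e-13) and -0.31 ± 0.11 (SE; limma adjusted p = 0.014). Rescaled values of Dtl were -0.88, -0.83 and -0.79 against -0.42, -0.32 and -0.25 at 4 h, and -0.70, -0.52 and -0.49 against -0.53, -0.41 and -0.30 at 8 h.

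The 6 genes that switch the helicase on all fell after 8 h of BMH-21, and MCM10, a scaffold of the active fork, fell most. Mcm10 was 8.08, 8.08 and 7.95 in controls, 7.75, 8.00 and 7.89 at 2 h, 7.31, 7.02 and 7.04 at 4 h and 6.91, 6.61 and 6.83 at 8 h of BMH-21. CX-5461 gave 7.84, 7.64 and 7.66, 7.04, 7.38 and 7.20 and 7.86, 7.83 and 7.82. In the CX-5461 course every library lay below the controls at each time, with the lowest values at 4 h. The differences at 8 h were -1.25 ± 0.11 (SE; limma adjusted p = 2.1e-21) with BMH-21 and -0.20 ± 0.11 (SE; limma adjusted p = 0.1) with CX-5461. The other scalings gave Mcm10 -1.04, -0.86 and -0.72 and -0.42, -0.30 and -0.07 (not called).

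GINS4, a subunit of the GINS complex, had the smallest fall of these 6. Gins4 held 6.97, 7.04 and 6.65 in controls, 6.78, 6.86 and 6.75 at 2 h, 6.77, 6.50 and 6.63 at 4 h and 6.33, 6.30 and 6.28 at 8 h of BMH-21. With CX-5461 it held 6.86, 6.61 and 6.75, 6.48, 6.69 and 6.49 and 6.93, 6.87 and 6.86. Only the BMH-21 8 h libraries were clear of the controls, at a difference of -0.58 ± 0.11 (SE; limma adjusted p = 5.2e-07), or -0.37, -0.19 and -0.11 (not called) under the other scalings. Of the 6 genes, 2 were called after 8 h of CX-5461, Gins1 at -0.45 and Gins2 at -0.34, while centring had all 6 lower and median-ratio factors 3. Over all genes, 14.3% were called lower as deposited and 44.7% after centring, and 70.1% in either direction with median-ratio factors.

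Among the polymerases and primase, POLD1, the catalytic subunit of polymerase delta, had one of the largest falls of the whole list. Pold1 read 7.65, 7.71 and 7.46 in controls, 7.17, 7.39 and 7.32 at 2 h, 6.88, 6.69 and 6.76 at 4 h and 6.19, 6.01 and 6.14 at 8 h of BMH-21. In the CX-5461 libraries it read 7.46, 7.28 and 7.31, 6.89, 7.03 and 6.89 and 7.26, 7.14 and 7.24. Each treated library, from 2 h on, lay below the lowest control. Pold1 was at -1.49 ± 0.10 (SE; limma adjusted p = 4.5e-27) with BMH-21 for 8 h and at -0.39 ± 0.10 (SE; limma adjusted p = 0.00091) with CX-5461. It was called in all cases under the other scalings, at -1.28, -1.10 and -1.03 and at -0.61, -0.49 and -0.32.

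Prim2, the large subunit of primase, moved in opposite directions at 8 h on the deposited scale and after centring. Its values were 5.72, 5.74 and 5.55 in controls, 5.61, 5.78 and 5.68 at 2 h, 5.71, 5.38 and 5.44 at 4 h and 5.42, 5.17 and 5.32 at 8 h of BMH-21. CX-5461 gave 5.73, 5.45 and 5.43, 5.28, 5.58 and 5.37 and 6.06, 5.93 and 5.93. The 8 h libraries of BMH-21 all lay below the controls and those of CX-5461 all above them. The differences were -0.36 ± 0.11 (SE; limma adjusted p = 0.0018) with BMH-21 and 0.30 ± 0.11 (SE; limma adjusted p = 0.017) with CX-5461. After centring they were -0.15 (limma adjusted p = 0.0011) and 0.09 (limma adjusted p = 0.048). The BMH-21 value was 0.03 (not called) with median-ratio factors and -0.03 (not called) after quantile normalization, so its direction and its call rest on the scaling. The CX-5461 value was 0.21 and 0.22 under these. The difference between the inhibitors was -0.67 ± 0.11 (SE; limma adjusted p = 5.2e-08), and -0.24 (limma adjusted p = 9.6e-06) after centring.

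The sliding clamp and its loader had all 6 genes called lower at 4 h and at 8 h of BMH-21, against the 44.9% and 56.9% of all genes given above. With median-ratio factors 3 of the 6 were called at 4 h, where the median of the group was -0.14 in place of -0.34, and 6 at 8 h. The same factors had 72.7% and 82.5% of all genes called in either direction at these times. PCNA, the clamp, had the highest level per kilobase of the 44 genes in controls (log2 7.82 per kilobase of exon), ahead of Mcm5 (7.55) and Ccne1 (7.43), and Ccne2 had the lowest (1.62). Pcna stood at 9.16, 9.18 and 8.91 in controls, 8.92, 9.09 and 8.98 at 2 h, 8.76, 8.47 and 8.55 at 4 h and 7.70, 7.63 and 7.66 at 8 h of BMH-21. With CX-5461 it stood at 9.08, 8.80 and 8.93, 8.49, 8.73 and 8.43 and 8.91, 8.68 and 8.75. Most of its fall with BMH-21 came between 4 h and 8 h, at -0.93 ± 0.10 (SE; limma adjusted p = 7.7e-14). From control to 8 h the difference was -1.42 ± 0.10 (SE; limma adjusted p = 6.6e-26) with BMH-21, and with CX-5461, whose libraries touched the control range, -0.30 ± 0.10 (SE; limma adjusted p = 0.0097). Rescaled, Pcna was at -1.21, -1.03 and -0.77 and at -0.52, -0.40 and -0.07 (not called). GENCODE names 2 processed copies of Pcna, and how reads were divided among them is not stated.

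RFC2, a subunit of the clamp loader, marked the other end of the group. Rfc2 was 7.07, 7.18 and 6.93 in controls, 6.84, 7.01 and 6.88 at 2 h, 6.97, 6.66 and 6.78 at 4 h and 6.48, 6.41 and 6.48 at 8 h of BMH-21. The CX-5461 values were 6.998, 6.75 and 6.86, 6.67, 6.86 and 6.68 and 7.13, 7.03 and 7.10. After 8 h of BMH-21 all 3 libraries were below the controls, by -0.61 ± 0.11 (SE; limma adjusted p = 1.3e-07), or -0.39, -0.22 and -0.11 rescaled, while those of CX-5461 overlapped them. Of the 6 genes, only Pcna and Rfc5 were called after 8 h of CX-5461, while centring had all 6 lower and median-ratio factors 4. The shares over all genes were 14.3% lower as deposited, 44.7% lower after centring and 70.1% in either direction with median-ratio factors.

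The single-strand binding proteins and the enzymes that finish the lagging strand fell to much the same depth with BMH-21, from -0.97 for Rpa1 to -0.81 for Rpa2. RPA1 and RPA2 are subunits of replication protein A, which coats single-stranded DNA. Rpa1 was 9.23, 9.25 and 9.03 in controls, 8.95, 9.19 and 9.08 at 2 h, 8.99, 8.70 and 8.72 at 4 h and 8.28, 8.11 and 8.21 at 8 h of BMH-21. Under CX-5461, Rpa1 was 9.12, 8.85 and 8.97, 8.60, 8.87 and 8.69 and 8.94, 8.87 and 8.88. From 4 h on its treated libraries lay below all controls. Rpa2 was 7.58, 7.64 and 7.38 in controls, 7.48, 7.63 and 7.54 at 2 h, 7.35, 7.03 and 7.13 at 4 h and 6.73, 6.74 and 6.69 at 8 h of BMH-21. Its CX-5461 values were 7.53, 7.27 and 7.43, 6.97, 7.13 and 6.99 and 7.60, 7.53 and 7.55. The CX-5461 libraries of Rpa2 thus returned into the control range at 8 h and those of Rpa1 did not. The 8 h differences were -0.97 ± 0.10 (SE; limma adjusted p = 5.5e-16) for Rpa1 and -0.81 ± 0.10 (SE; limma adjusted p = 6.8e-12) for Rpa2 with BMH-21, and -0.28 ± 0.10 (SE; limma adjusted p = 0.017) and 0.03 ± 0.10 (SE; limma adjusted p = 0.84) with CX-5461. For Rpa1 the other scalings gave -0.76, -0.58 and -0.26 under BMH-21, and -0.49, -0.38 and -0.05 (not called) under CX-5461, and for Rpa2 they gave -0.60, -0.42 and -0.30 and -0.19, -0.07 (not called) and 0.11 (not called).

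Enzymes of deoxynucleotide supply did not move together. TK1 is the thymidine kinase of the salvage route, and RRM2 is the small subunit of ribonucleotide reductase. Tk1 held 6.89, 6.91 and 6.73 in controls, 6.61, 6.77 and 6.62 at 2 h, 6.40, 6.16 and 6.25 at 4 h and 5.45, 5.37 and 5.42 at 8 h of BMH-21. With CX-5461 the values were 6.84, 6.66 and 6.64, 6.36, 6.51 and 6.35 and 6.77, 6.67 and 6.68. Tk1 was below all controls at 4 h of both inhibitors, and at 8 h only with BMH-21, at -1.43 ± 0.11 (SE; limma adjusted p = 2.1e-25) against -0.13 ± 0.11 (SE; limma adjusted p = 0.3) with CX-5461. Under the other scalings Tk1 was at -1.22, -1.04 and -1.03 and at -0.35, -0.23 and -0.09 (not called).

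Rrm2 kept close to its control level on the deposited scale. It read 8.38, 8.38 and 8.21 in controls, 8.24, 8.44 and 8.32 at 2 h, 8.72, 8.46 and 8.42 at 4 h and 8.35, 8.17 and 8.36 at 8 h of BMH-21. CX-5461 libraries gave 8.53, 8.26 and 8.35, 8.31, 8.54 and 8.37 and 8.44, 8.37 and 8.40. The groups overlapped except at 4 h of BMH-21, whose libraries all lay above the controls. The 4 h difference was 0.21 ± 0.10 (SE; limma adjusted p = 0.061) with BMH-21, and 0.36 (limma adjusted p = 2.7e-10) after centring. At 8 h it was -0.03 ± 0.10 (SE; limma adjusted p = 0.77) with BMH-21 and 0.08 ± 0.10 (SE; limma adjusted p = 0.54) with CX-5461, and centring turned these to 0.18 (limma adjusted p = 1.2e-05) and -0.13 (limma adjusted p = 0.00047). Median-ratio factors and quantile normalization gave 0.36 and 0.65 with BMH-21, and -0.02 (not called) and 0.26 with CX-5461. Tyms, the thymidylate synthase, was at 0.05 ± 0.11 (SE; limma adjusted p = 0.66) after 4 h and -0.32 ± 0.11 (SE; limma adjusted p = 0.004) after 8 h of BMH-21, and the latter was -0.11, 0.07 (not called) and 0.16 under the other scalings.

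Cyclin E1 gave the widest split between the inhibitors. Ccne1 stood at 8.90, 8.95 and 8.69 in controls, 8.54, 8.76 and 8.65 at 2 h, 8.12, 7.80 and 7.91 at 4 h and 7.41, 7.31 and 7.31 at 8 h of BMH-21. Under CX-5461 it stood at 8.69, 8.44 and 8.57 at 2 h, 7.80, 8.04 and 7.88 at 4 h and 8.85, 8.76 and 8.76 at 8 h. At 4 h the libraries of both inhibitors overlapped each other and lay below all controls, and at 8 h only those of CX-5461 had come back into the control range. The differences from control were -0.90 ± 0.10 (SE; limma adjusted p = 7.6e-14) and -0.94 ± 0.10 (SE; limma adjusted p = 1.2e-14) at 4 h, and -1.503 ± 0.10 (SE; limma adjusted p = 8.3e-28) and -0.06 ± 0.10 (SE; limma adjusted p = 0.68) at 8 h, for BMH-21 and CX-5461 in turn. At 8 h the other scalings gave -1.29, -1.11 and -0.89 under BMH-21, and -0.27, -0.15 and 0.16 under CX-5461, so the direction of the latter rests on the scaling. The difference between the inhibitors at 8 h was -1.45 ± 0.10 (SE; limma adjusted p = 1e-25), and -1.02 (limma adjusted p = 1.9e-15) after centring.

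The 3 activating E2F factors each took a course of their own. E2f1 was 5.68, 5.61 and 5.60 in controls, 5.72, 5.83 and 5.78 at 2 h, 5.92, 5.78 and 5.90 at 4 h and 5.75, 5.64 and 5.76 at 8 h of BMH-21. CX-5461 gave 5.85, 5.61 and 5.64, 5.70, 5.91 and 5.80 and 5.89, 5.81 and 5.93. No E2f1 group lay below the controls. It rose at 4 h of BMH-21, at 0.23 ± 0.11 (SE; limma adjusted p = 0.044), and at 8 h of CX-5461, at 0.25 ± 0.11 (SE; limma adjusted p = 0.044). At 8 h of BMH-21 it was at 0.09 ± 0.11 (SE; limma adjusted p = 0.44), and at 0.30 (limma adjusted p = 8.6e-06), 0.48 and 0.44 under the other scalings. These left the CX-5461 value at 0.03 (limma adjusted p = 0.57), 0.15 and 0.16. They put E2f1 at 0.38, 0.44 and 0.41 at 4 h of BMH-21. On the deposited scale its call at 4 h of BMH-21 ended without any one of 5 of the 6 libraries, and that at 8 h of CX-5461 without any one of the 6.

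E2f2 was the only member called in opposite directions by the inhibitors at 2 h. It read 4.82, 4.69 and 4.63 in controls, 5.07, 5.27 and 5.18 at 2 h, 4.07, 3.81 and 3.77 at 4 h and 4.25, 4.05 and 4.21 at 8 h of BMH-21. With CX-5461 it read 4.45, 4.34 and 4.33, 3.55, 3.87 and 3.73 and 5.00, 4.76 and 4.89. At 2 h the BMH-21 libraries all lay above the controls and the CX-5461 libraries all below, and at 4 h both groups lay below. The 2 h differences were 0.46 ± 0.11 (SE; limma adjusted p = 0.001) with BMH-21 and -0.34 ± 0.11 (SE; limma adjusted p = 0.016) with CX-5461, and the difference between inhibitors was 0.80 ± 0.11 (SE; limma adjusted p = 5.6e-08). Centring gave 0.53 (limma adjusted p = 7.7e-09) and -0.20 (limma adjusted p = 0.0036) for the first pair. At 4 h E2f2 was at -0.83 ± 0.11 (SE; limma adjusted p = 1.2e-10) and -0.997 ± 0.11 (SE; limma adjusted p = 7.8e-14), and at 8 h at -0.54 ± 0.11 (SE; limma adjusted p = 8.8e-06) and 0.17 ± 0.11 (SE; limma adjusted p = 0.22). Rescaled, these were -0.68, -0.63 and -0.66 and -0.84, -0.73 and -0.85 at 4 h, and -0.33, -0.15 and -0.32 and -0.05 (not called), 0.07 (not called) and -0.02 (not called) at 8 h. The CX-5461 call at 2 h ended without control replicate 1 or CX-5461 replicate 2 or 3.

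E2f3, whose promoter stretch holds its match near the start, also rose first with BMH-21. Its values were 6.01, 6.06 and 5.98 in controls, 6.25, 6.54 and 6.42 at 2 h, 5.66, 5.45 and 5.35 at 4 h and 5.20, 4.80 and 5.10 at 8 h of BMH-21. The CX-5461 libraries held 6.24, 6.09 and 6.11, 5.35, 5.56 and 5.47 and 5.86, 5.76 and 5.91. At 2 h the libraries of both inhibitors lay above the controls, and at 4 h and 8 h all lay below. The difference was 0.39 ± 0.11 (SE; limma adjusted p = 0.0049) at 2 h of BMH-21 and 0.13 ± 0.11 (SE; limma adjusted p = 0.34) at 2 h of CX-5461, and 0.28 (limma adjusted p = 9.4e-05) for the latter after centring. After 8 h it was -0.98 ± 0.11 (SE; limma adjusted p = 1.5e-14) with BMH-21 and -0.17 ± 0.11 (SE; limma adjusted p = 0.19) with CX-5461, and -0.77, -0.59 and -0.64 and -0.39, -0.27 and -0.25 under the other scalings.

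**Figure D4:**
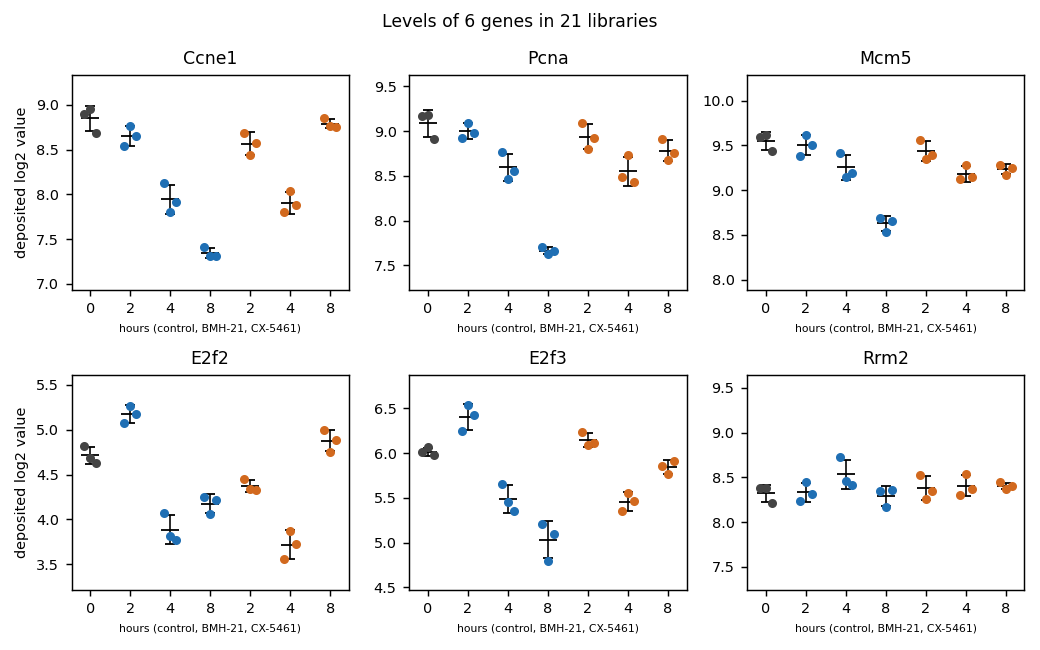
Deposited log2 values of Ccne1, Pcna, Mcm5, E2f2, E2f3 and Rrm2 in the 21 libraries, with control in grey, BMH-21 in blue and CX-5461 in orange against hours. Points are libraries, black bars the mean and SD of 3, and each panel spans the same range of log2 units. Ccne1 at 8 h lies between 7.31 and 7.41 with BMH-21 and between 8.76 and 8.85 with CX-5461, while Rrm2 stays close to its controls throughout.

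Set directly against each other, the inhibitors differed in few members before 8 h on the deposited scale. At 2 h, E2f2 was the only member called, as 1 higher and 0 lower with BMH-21, where 2.47% of all genes were called higher and 1.52% lower. With centring 2 were higher and 6 lower (7.83% and 7.58%), with median-ratio factors 2 and 7 (15% of all genes in either direction) and quantile normalization 1 and 7 (12.6%). Median-ratio factors had 849 of all 14666 genes higher and 1348 lower. At 4 h Cdc6 (-0.31), Dtl (-0.45) and Gins3 (-0.39) were lower with BMH-21 and none was higher, where 8.49% of all genes were called lower and 9.35% higher. Without BMH-21 replicate 2, 1 of the 3 was called. With centring 10 were higher and 11 lower (27.4% and 18.5%), with median-ratio factors 3 and 13 (41.9% in either direction) and quantile normalization 2 and 15 (41.9%). At 4 h median-ratio factors had 2656 of all genes higher and 3495 lower.

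At 8 h 42 of the 44 genes were lower with BMH-21 than with CX-5461 and none was higher, where 67.2% of all genes were called lower and 12% higher. Every BMH-21 library lay below every CX-5461 library for all 44 genes on the deposited scale, as it did for 69.7% of all genes tested. After centring this held for 36 of the 44 and 40.4% of all genes, and 4 members lay wholly above, as did 31.6% of all genes. Centring gave 36 lower and 4 higher (40.6% and 31.1%), median-ratio factors 33 and 4 (70.9% in either direction) and quantile normalization 34 and 4 (73.6%). Median-ratio factors had 5133 of all 14666 genes lower and 5267 higher. The 4 genes higher with BMH-21 after centring were Orc1, Rrm2, Tyms and E2f1. Ccne1, Tk1, Pcna and Pold1 had the largest differences, at -1.45, -1.30, -1.12 and -1.10, and these were -1.02, -0.87, -0.69 and -0.67 after centring.

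The change from 4 h to 8 h uses no control library. With BMH-21, 34 members fell further and E2f2 rose, where 37.8% of all genes were called lower and 18.6% higher. Centring gave 37 lower and 2 higher (42.2% and 28.3%), and quantile normalization 23 and 4 (68.7% in either direction). With CX-5461, 27 members rose from 4 h to 8 h and none fell, where 58.8% of all genes were called higher and 4.85% lower. With centring 9 were higher and 21 lower (25.8% and 32%), with median-ratio factors 9 and 20 (57.4% in either direction) and quantile normalization 14 and 13 (56.9%), so the direction of most members rests on the scaling. Median-ratio factors had 3910 of all 14666 genes higher and 4505 lower. The 9 that were higher under centring were Cdc6, Gmnn, Mcm10, Cdc45, Pola2, Prim2, Rpa2, E2f2 and Ccne1. E2f2 rose by 1.16 ± 0.11 (SE; limma adjusted p = 1.7e-16) and Ccne1 by 0.88 ± 0.10 (SE; limma adjusted p = 7.3e-13), and after centring by 0.79 (limma adjusted p = 7e-12) and 0.51 (limma adjusted p = 1.3e-09). The 6 MCM subunits went the other way after centring, from -0.42 to -0.16, with all 6 called, and were between -0.04 and 0.21 with none called on the deposited scale. The change from 4 h to 8 h was lower with BMH-21 than with CX-5461 for 41 members and higher for 0, where 61.4% of all genes were called lower and 7.98% higher. For this difference centring gave 34 lower and 3 higher (36.2% and 24%), median-ratio factors 26 and 5 (57.8% in either direction) and quantile normalization 24 and 4 (60.7%). Of all genes, median-ratio factors had 3884 lower and 4593 higher for it.

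**Figure D5:**
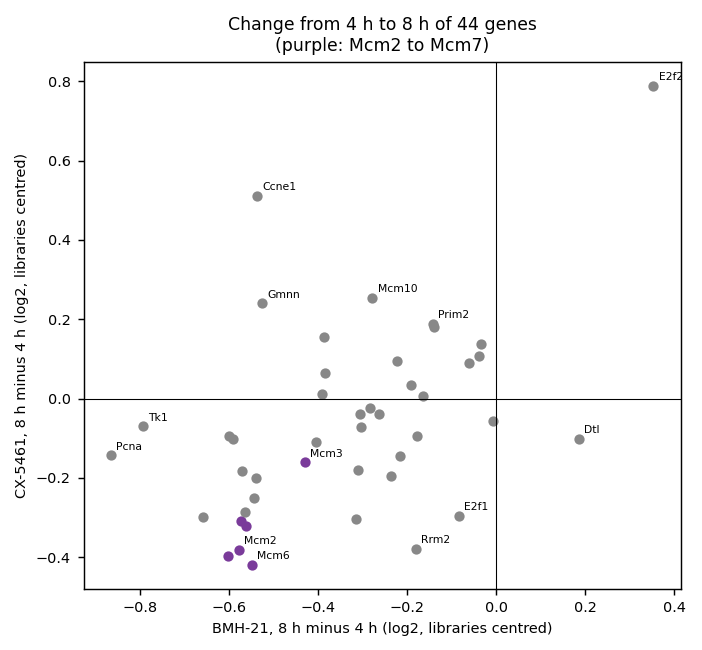
Change from 4 h to 8 h with BMH-21 (horizontal) against that with CX-5461 (vertical) for the 44 genes, in log2 units after each library was centred on its median. Points are genes and purple marks Mcm2 to Mcm7. Ccne1, Gmnn and Mcm10 lie at upper left, lower with BMH-21 and higher with CX-5461, while the 6 MCM subunits lie at lower left and E2f2 is higher in both.

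A list of 55 other genes of the pathway was set beside the 44. Of these, 54 passed the filter on low values. BMH-21 at 8 h had 46 of them lower and 4 higher, with a median of -0.73, where 56.9% of all genes were lower and 24.5% higher. Centring gave 42 and 5 (51.3% and 33.3% of all genes), with a median of -0.52. Median-ratio factors gave 40 and 8 (82.5% in either direction), with a median of -0.34. Of all 14666 genes they had 6099 lower and 5997 higher. CX-5461 at 8 h had 11 lower and 5 higher, with a median of -0.12, where 14.3% of all genes were lower and 35.1% higher. For CX-5461, centring gave 41 lower and 3 higher (44.7% and 29.3% of all genes), with a median of -0.34. Median-ratio factors gave 34 and 6 (70.1% in either direction), with a median of -0.22. Of all genes they had 4943 lower and 5340 higher with CX-5461. The largest falls with BMH-21 were those of E2f8, an E2F factor that represses (-1.47), Pold2, a subunit of polymerase delta (-1.41), and E2f4 (-1.38), which were -1.26, -1.196 and -1.17 after centring. With CX-5461 they were Mcm9 (-0.85), E2f8 (-0.46) and Uhrf1 (-0.46), or -1.06, -0.67 and -0.67 after centring. The largest rises were those of Rb1 and Rbl2, 2 of the 3 retinoblastoma family genes, whose proteins hold E2F factors in check. Rb1 stood at 3.33, 3.34 and 3.17 in controls, 3.53, 3.83 and 3.68 at 2 h, 6.00, 5.66 and 5.57 at 4 h and 6.64, 6.26 and 6.64 at 8 h of BMH-21. With CX-5461 it stood at 3.97, 3.83 and 3.69, 5.69, 6.00 and 5.81 and 5.80, 5.59 and 5.71. Every treated Rb1 library lay above every control. The difference at 8 h was 3.23 ± 0.12 (SE; limma adjusted p = 5.1e-54) with BMH-21 and 2.42 ± 0.12 (SE; limma adjusted p = 6.6e-41) with CX-5461. Rbl2 was at 2.04 ± 0.12 (SE; limma adjusted p = 2.9e-33) and 1.34 ± 0.12 (SE; limma adjusted p = 2.2e-19), and both genes kept their direction and call after centring. Rbl1, the other family member, went the other way with BMH-21. It held 4.10, 3.99 and 3.90 in controls, 3.17, 2.67 and 3.15 at 8 h of BMH-21 and 3.88, 3.71 and 3.65 at 8 h of CX-5461, with all 8 h libraries below the controls. The differences of Rbl1 were -1.002 ± 0.12 (SE; limma adjusted p = 4.3e-13) and -0.25 ± 0.12 (SE; limma adjusted p = 0.072), and -0.79, -0.61 and -0.92 and -0.47, -0.35 and -0.55 under the other scalings. The third rises were Dck (0.26) with BMH-21 and Dna2 (0.49) with CX-5461.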

How the data were processed

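The members and the gene lists were chosen with earlier results of these data known. The authors deposited 1 table of log2 values for 20900 genes and 21 libraries, named as voom-normalized. Each value is a read count plus 0.5, divided by a scaled library size, as log2. All values (100%) gave whole reads, to within 1.7e-08 of a read, so depth is the recovered total of 46604397 to 62812641 reads. The submitters' processing notes name Trim Galore 0.5.0, TopHat2 2.1.1, R 4.0.5, DESeq2 1.30.1, edgeR 3.32.1, limma 3.46.0 and the build mm10, without their roles, and the counting's use of strand is not given in the sources used here. Fragment duplicates cannot be seen in such values.

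Groups and times come from the labels' titles. Between replicates the chi-square per degree of freedom was 2.58 to 26.0, above sampling noise, so each was counted separately. The test was limma 3.58.1 (R 4.3.3) on the log2 values, fitted to all 21 libraries with a mean for each group and eBayes moderation along a trend. Tests were two-sided, with Benjamini-Hochberg adjustment over 14666 genes with a log2 value above 0 in at least 3 of 21 libraries. The other 6234 genes were set aside. There were 12 comparisons at a threshold of 0.05. The prior of the variance had 111.5 degrees of freedom and the replicates 14, and 0 members had an own variance over 2 times the moderated one. The fit was also run on simulated data drawn with its own estimate of the spread. That run cannot test the scaling or a case where most genes change. Level and difference in log2 units keep the 0.5 offset, which hardly moves genes with this many reads.

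Values in every library are given for the members with the largest and the smallest BMH-21 difference at 8 h in each of the 8 role groups and for those called in opposite directions by the inhibitors. E2f3, Tyms, Rb1 and any other gene with values outside that rule were chosen after their values were seen, apart from the 3 largest rises and falls of the other pathway genes at 8 h. Coordinates and exon lengths come from GENCODE M21 and promoters from RefSeq GRCm38.p6, with figures drawn in matplotlib 3.10.9. In GENCODE, 14 members share exon sequence with a gene on the opposite strand and 2 with one on the same strand (Mcm7 and Rpa1), and 2 (Pcna and Tyms) have named pseudogenes, so their values are less certain. Alternatives covered scaling, filter, offset, variance model, samples in the fit, a replicate block and leaving out each replicate.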

Additional observations from a re-analysis of the deposited data

Results flagged for a closer look

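The effects of the inhibitors differed in a test of the difference itself (limma, adjusted p under 0.05) for 1 member at 2 h, where 2.47% of all genes were called higher with BMH-21 and 1.52% lower. At 4 h this held for 3 members (9.35% and 8.49% of all genes) and at 8 h for 42 members (12% and 67.2%). Other scalings gave 8 to 9 members at 2 h, 16 to 21 at 4 h and 37 to 40 at 8 h. The change from 4 h to 8 h differed between the inhibitors for 41 members (7.98% of all genes higher and 61.4% lower), and for 28 to 37 under other scalings. For E2f2 at 2 h the difference, BMH-21 minus CX-5461, was 0.80 on the log2 scale, with BMH-21 above and CX-5461 below control in 3 of 3 libraries each. For Prim2 at 8 h it was -0.67, with BMH-21 below and CX-5461 above control in 3 of 3 libraries each on the deposited scale. Other scalings gave -0.25 to -0.18, and the BMH-21 difference from control was not called under median-ratio factors or quantile normalization.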

How the results depend on the processing

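Filters, offset, variance model and fits of only the groups compared kept the 12 counts of members within 1.5 times, except CX-5461 at 2 h, where no filter and no variance trend each gave 2 in place of 4. Scaling mattered more. Under centring, median-ratio factors and quantile normalization in turn, the counts were 14, 15 and 12 (6 as reported) for BMH-21 at 2 h, 9, 9 and 8 (4) for CX-5461 at 2 h, 8, 9 and 8 (1) for the inhibitors compared at 2 h, and 21, 16 and 17 (3) at 4 h. CX-5461 at 8 h gave 41 under centring and 31 under median-ratio factors (17), and CX-5461 at 4 h gave 22 under quantile normalization (41). The cause was not tested.

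Leaving out 1 library gave 3 to 7 members for BMH-21 at 2 h, 29 to 40 at 4 h and 42 to 42 at 8 h, and 0 to 12, 32 to 41 and 9 to 16 for CX-5461 at the same times. It gave 1 to 1, 1 to 3 and 41 to 42 for the inhibitors compared at 2 h, 4 h and 8 h, 28 to 34 and 19 to 33 for the changes from 4 h to 8 h of BMH-21 and CX-5461, and 39 to 41 for the difference between those changes. With the replicate number as a term (replicate block) BMH-21 gave 5, 35 and 42 members at 2, 4 and 8 h, and CX-5461 gave 4, 41 and 16. The numbers do not pair the samples: the deviations of same-numbered libraries had correlations of -0.251 to 0.109 (median 0.00206) over 63 pairs, and 4 of 21 libraries were nearest to their own number.

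Some values changed sign. Median-ratio factors gave 0.033 and quantile normalization 0.018 for the median of the 44 genes at 2 h of CX-5461, and centring and median-ratio factors gave -0.094 and -0.084 for its change from 4 h to 8 h. At 8 h of CX-5461, Ccne1 was 0.157 under quantile normalization, E2f2 was -0.050 under centring and -0.020 under quantile normalization, Rrm2 was -0.135 under centring and -0.017 under median-ratio factors, and Rpa2 was -0.187 and -0.069 under these, and -0.049 to 0.084 with 1 library left out. At 8 h of BMH-21, Orc1 was 0.028 and Tyms 0.068 under median-ratio factors and 0.122 and 0.159 under quantile normalization, and Prim2 was 0.028 under median-ratio factors. Rrm2 there was 0.179, 0.359 and 0.648 under centring, median-ratio factors and quantile normalization, and -0.088 to 0.030 with 1 library left out. Tyms at 4 h of BMH-21 was -0.018 to 0.102 with 1 library left out. Over the 104 gene results of the text, 1515 of 1664 alternative values kept direction and side of the threshold. Among the 16 alternatives for each result, only centring, median-ratio factors and quantile normalization changed the scaling. The pooled count therefore says little of how far results rest on scaling.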
